A study of Mus musculus with 12 samples.

Results

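Collagen genes, 44 of the 24318 genes in the deposited table, were taken as all genes whose symbol has the form of a collagen chain (Col, a type number, the letter a and a chain number). The chains are described by their place in the matrix, from the basement membrane and fibrillar types to the types that decorate fibrils or form networks. RNA came from immortalized mouse embryonic fibroblasts, and every group carries the genotype MafF-/-::MafG-/-::MafK-/-, so the controls lack the small Maf genes too. The 4 groups of 3 libraries are T-N2G DEM (cells expressing T-N2G, 100 µM diethyl maleate for 12 h), T-N2G vehicle (the same cells, vehicle for 12 h), mock DEM (mock cells, 100 µM diethyl maleate for 12 h) and mock vehicle (mock cells, vehicle for 12 h). T-N2G is a heterodimer of Nrf2 and MafG joined by a tether, and diethyl maleate (DEM) is an electrophile that depletes glutathione. The labels do not say which promoter drives T-N2G, whether either cell line is 1 clone, or whether replicates were separate cultures, so p-values measure only the spread between these libraries, which may be technical.

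Collagens are secreted matrix proteins whose alpha chains wind into helical trimers. Fibroblasts secrete fibrillar collagen as procollagen, which is hydroxylated and folded in the endoplasmic reticulum, trimmed outside the cell and packed into fibrils, while type IV collagen forms the sheet of the basement membrane. Nrf2 binds DNA as a dimer with a small Maf protein, at antioxidant response elements of genes for detoxification and glutathione synthesis. The comparisons ask what the tethered dimer, the electrophile, and both together change in cells that have no other small Maf.

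Library totals were 18863560 to 23095692 fragments, and 14810 to 15134 genes had a fragment. Mafg averaged 121 ± 22.2 CPM in T-N2G DEM, 137 ± 27.9 in T-N2G vehicle, 0.877 ± 0.0563 in mock DEM and 0.514 ± 0.0394 in mock vehicle (SD, n = 3 each), in the direction the labels give. CPM are fragment counts scaled by effective library size. Of 9 fibroblast markers, 8 passed the filter on low counts, and their summed level was 3451 to 3628 CPM in T-N2G DEM, 3788 to 3840 in T-N2G vehicle, 3782 to 4139 in mock DEM and 3951 to 4088 in mock vehicle. The fibroblast markers Fap and Dpt were at 0 in at least 1 library, and the summed level of 6 blood cell markers was at most 0.525 CPM in any library. In bulk RNA fewer cells of a type and less RNA per cell cannot be told apart. Libraries with the same replicate number resembled each other across groups, which moved several collagen chains and is described with them.

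Of the 44 chains, 31 had a fragment in all 12 libraries and 29 passed the filter on low counts. Col13a1 and Col26a1 had no fragment in any library, and a count of 0 allows up to 3 fragments, 0.130 to 0.159 CPM depending on the library. The other 13 chains that were not tested had at most 15 fragments in a library, namely Col11a2, Col9a3, Col17a1, Col4a4, Col9a2, Col4a3, Col6a4, Col6a5, Col24a1, Col25a1, Col6a6, Col9a1 and Col22a1. Among them are the type IX chains, which coat cartilage fibrils, and Col4a3 and Col4a4, which belong to the mature kidney filter. By FPKM, which is fragments scaled by transcript length and depth and so allows levels of different genes to be compared, 14 tested chains averaged at least 10, 8 averaged between 1 and 10, and 7 averaged under 1.

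Type I collagen led the family. Col1a1 held 31.3% of the summed collagen FPKM on average over the libraries and Col1a2 held 21.8%, and the encoded chains form the main fibril of skin, tendon and bone. Col12a1, which decorates type I fibrils, held 8.21%, and Col5a2 and Col5a1, which start fibrils and set their width, held 6.88% and 5.63%. Col4a1 and Col4a2, the common chains of basement membranes, held 5.78% and 5.25%. The ratio of Col1a1 to Col1a2 in FPKM was 1.41 ± 0.18 in T-N2G DEM, 1.41 ± 0.13 in T-N2G vehicle, 1.52 ± 0.18 in mock DEM and 1.44 ± 0.18 in mock vehicle (SD, n = 3 each). Replicate 2 had the lowest ratio of every group. Within replicate numbers the ratio was lower in T-N2G DEM than in mock DEM in 3 of 3 pairs and higher in mock DEM than in mock vehicle in 3 of 3 pairs, which was not tested. The ratio of Col4a1 to Col4a2 was 1.12 ± 0.019 in T-N2G DEM, 1.10 ± 0.013 in T-N2G vehicle, 1.10 ± 0.036 in mock DEM and 1.07 ± 0.018 in mock vehicle.

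Col4a1 and Col4a2 lie head to head. Their promoter sequences are shown because both genes were called higher in the same 3 comparisons, their annotated exons overlap on opposite strands, and their windows share bases, and those of Col8a1, Col27a1 and Col5a1 because these chains were called lower in at least 1 comparison. The windows are those of RefSeq on GRCm38.p6, from 250 bases before to 50 bases after the annotated start, on the gene's strand, and none was found for Col1a1. They lie at chr8:11312777-11313076 (minus strand) for Col4a1, chr8:11312555-11312854 (plus strand) for Col4a2, chr16:57754688-57754987 (minus strand) for Col8a1, chr4:63215162-63215461 (plus strand) for Col27a1 and chr2:27886175-27886474 (plus strand) for Col5a1. Capitals mark, on either strand, the GC box GGGCGG, the CCAAT box and the antioxidant response element core TGACNNNGC.
Col4a1: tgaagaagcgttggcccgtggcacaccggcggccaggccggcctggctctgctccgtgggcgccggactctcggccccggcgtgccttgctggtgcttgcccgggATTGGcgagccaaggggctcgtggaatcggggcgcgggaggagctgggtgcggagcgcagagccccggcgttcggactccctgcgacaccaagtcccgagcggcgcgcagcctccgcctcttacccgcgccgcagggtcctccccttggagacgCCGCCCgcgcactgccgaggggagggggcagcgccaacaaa
Col4a2: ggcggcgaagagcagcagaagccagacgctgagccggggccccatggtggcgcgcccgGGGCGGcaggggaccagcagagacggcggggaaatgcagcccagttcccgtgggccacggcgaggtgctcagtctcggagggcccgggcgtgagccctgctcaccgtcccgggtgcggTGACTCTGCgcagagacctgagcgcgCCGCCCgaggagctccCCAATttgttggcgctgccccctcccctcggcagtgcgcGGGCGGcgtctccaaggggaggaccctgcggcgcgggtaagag
Col8a1: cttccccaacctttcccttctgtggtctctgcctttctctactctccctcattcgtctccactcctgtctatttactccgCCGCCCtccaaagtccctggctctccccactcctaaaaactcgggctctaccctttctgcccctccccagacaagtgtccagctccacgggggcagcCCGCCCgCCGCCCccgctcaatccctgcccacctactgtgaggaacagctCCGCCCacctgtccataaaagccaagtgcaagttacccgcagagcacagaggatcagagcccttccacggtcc
Col27a1: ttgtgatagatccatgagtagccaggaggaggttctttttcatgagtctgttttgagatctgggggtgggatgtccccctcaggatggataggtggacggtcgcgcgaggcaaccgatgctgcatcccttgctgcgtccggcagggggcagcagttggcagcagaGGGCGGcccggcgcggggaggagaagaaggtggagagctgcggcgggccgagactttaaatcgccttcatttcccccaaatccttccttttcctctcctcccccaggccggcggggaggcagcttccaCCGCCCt
Col5a1: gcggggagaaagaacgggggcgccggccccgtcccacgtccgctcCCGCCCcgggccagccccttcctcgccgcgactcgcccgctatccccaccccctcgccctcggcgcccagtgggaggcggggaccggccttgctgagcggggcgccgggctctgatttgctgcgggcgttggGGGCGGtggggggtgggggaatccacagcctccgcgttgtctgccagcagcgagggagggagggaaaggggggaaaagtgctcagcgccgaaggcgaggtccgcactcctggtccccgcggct
The windows of Col4a1 and Col4a2 share 78 bases on opposite strands. Each holds 1 CCAAT box, and the Col4a2 window also holds TGACTCTGC, a match to the element core, which begins 74 bases before its start. Over 35 chains with a window (38 windows in all), the element core stood in 7 windows, 18.4%, against 12.4% of all 32851 windows. Of the 26 windows of tested chains 3 held it, 11.5%. The GC box stood in 60.5% of collagen windows and 35.7% of all windows, the CCAAT box in 34.2% and 37.4%, and the AP-1 site TGANTCA in 2.63% and 7.81%. These shares were not adjusted for base composition. The printed windows have 60.3 to 75.0% G and C, and the median of all windows is 52.7%. The windows of Col8a1, Col27a1 and Col5a1 held 4, 2 and 2 GC boxes. A match of letters is a description of the window and not a site of binding.

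Counts of called chains come from 1 edgeR quasi-likelihood fit over all 12 libraries, and a chain was called where its p, adjusted by Benjamini-Hochberg over the 12469 genes tested, was under 0.05. Log2 fold changes carry their standard error, and the groups compared have n = 3 each. A second fit has the replicate number as a block. The 4 comparisons share libraries in pairs (T-N2G DEM stands in both comparisons of DEM with vehicle in T-N2G cells and of T-N2G with mock cells in DEM, for example), so a direction repeated among them is not independent.

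Counted over all 29 tested chains, DEM in T-N2G cells raised 2 (Col4a1, Col4a2) and lowered 4 (Col27a1, Col8a1, Col1a1, Col5a1), where 10.1% of all tested genes were called higher and 7.55% lower. DEM in mock cells raised the same 2 and lowered 2 (Col27a1, Col8a1), with 7.76% and 6.18% of all genes. In DEM, T-N2G over mock gave the same 2 higher and 2 lower, with 2.61% and 1.11% of all genes. As shares of the 29, the 2 chains of each of these counts are 6.90% and the 4 chains lower with DEM in T-N2G cells are 13.8%. DESeq2 gave 6 lower with DEM in T-N2G cells, adding Col1a2 and Col3a1 (8.67% of all genes), and 5 lower for T-N2G over mock in DEM, adding Col1a1, Col5a1 and Col11a1 (2.07% of all genes). In vehicle edgeR called no chain for T-N2G over mock (0.305% of all genes higher, 0.00802% lower). At an unadjusted p under 0.05 there were 5 of the 29 chains, against 6.42% of all genes (Col4a1, Col4a2, Col23a1 with positive and Col8a1, Col11a1 with negative log2 fold changes). DESeq2 called Col4a1 and Col4a2 higher (0.658% of all genes) and Col8a1 lower (0.209%).

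With the replicate block the counts grew, as they did over all genes. DEM in T-N2G cells raised 2 chains and lowered 17 (22.8% and 22.2% of all genes), and DEM in mock cells raised 4 and lowered 16 (20.9% and 21.9%). T-N2G over mock raised 4 and lowered 11 in DEM (10.3% and 9.32%), and raised 6 and lowered 3 in vehicle (3.06% and 3.24%). The chains that fell with DEM in T-N2G cells with the block were 58.6% of those tested, and in mock cells 55.2%. The median log2 fold change of the 29 chains with DEM was -0.46 in T-N2G cells and -0.21 in mock cells, with 26 and 21 of 29 below 0, against 50.8% and 52.2% of all genes.

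The basement membrane chains Col4a1 and Col4a2 were higher in DEM than in vehicle in both cell types, and higher in T-N2G cells than in mock cells in DEM. Col4a1 had 172, 163 and 168 FPKM in T-N2G DEM, 135, 133 and 148 FPKM in T-N2G vehicle, 135, 134 and 137 FPKM in mock DEM, and 114, 114 and 112.5 FPKM in mock vehicle. Col4a2 had 155, 142.5 and 151 FPKM in T-N2G DEM, 125, 121 and 134.5 FPKM in T-N2G vehicle, 125.5, 117.5 and 125.5 FPKM in mock DEM, and 106, 104 and 107 FPKM in mock vehicle. T-N2G DEM was the highest group and mock vehicle the lowest for both genes, T-N2G vehicle and mock DEM overlapped each other, and neither overlapped the highest or the lowest group.

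In T-N2G cells DEM raised Col4a1 by a log2 fold change of 0.28 ± 0.06, which is 1.21-fold (edgeR adjusted p = 0.00715), and Col4a2 by 0.24 ± 0.06, which is 1.18-fold (adjusted p = 0.0188). In mock cells the log2 fold changes were 0.26 ± 0.06 for Col4a1 and 0.22 ± 0.06 for Col4a2, 1.19- and 1.16-fold (adjusted p = 0.0140 and 0.0335). The DEM effect differed between the cell types by a log2 difference of 0.02 ± 0.08 for each gene (edgeR adjusted p = 0.9999 for both), with approximate 95% intervals of -0.14 to 0.18 and -0.15 to 0.19. In DEM, T-N2G cells had log2 fold changes over mock cells of 0.32 ± 0.06 for Col4a1 and 0.29 ± 0.06 for Col4a2 (adjusted p = 0.00704 and 0.0189). In vehicle the log2 fold changes were 0.30 ± 0.06 and 0.26 ± 0.06 and missed the threshold (adjusted p = 0.0657 and 0.128), while both passed it with the replicate block (0.000204 and 0.000370). Over all alternatives the adjusted p in vehicle ran from 3.14e-06 to 0.883 for Col4a1 and from 0.000370 to 0.9998 for Col4a2. With only replicates 1 and 2 of each group no call of Col4a1 or Col4a2 held (adjusted p from 0.0508 to 0.1125 for Col4a1 and from 0.0947 to 0.196 for Col4a2 in the other 3 comparisons, the highest over all alternatives), and the Col4a2 calls were also lost in 4 or 5 of 6 fits that left out 1 library each. The annotated exons of the genes overlap on opposite strands, and whether fragments were counted by strand is not given in the sources used here, so some fragments of the pair may be assigned to the wrong partner.

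The other tested type IV chains did not follow. Col4a6, an X-linked chain of smooth muscle basement membranes, averaged 4.27 ± 0.69 FPKM in T-N2G DEM, 5.44 ± 0.92 in T-N2G vehicle, 5.42 ± 0.62 in mock DEM and 6.63 ± 1.12 in mock vehicle (SD, n = 3 each). It was lower with the replicate block in all 4 comparisons and in none without it. Col4a5, its head-to-head neighbour, averaged 14.9 to 17.2 FPKM per group and was lower only in mock DEM against mock vehicle, with the block.

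**Figure D1:**
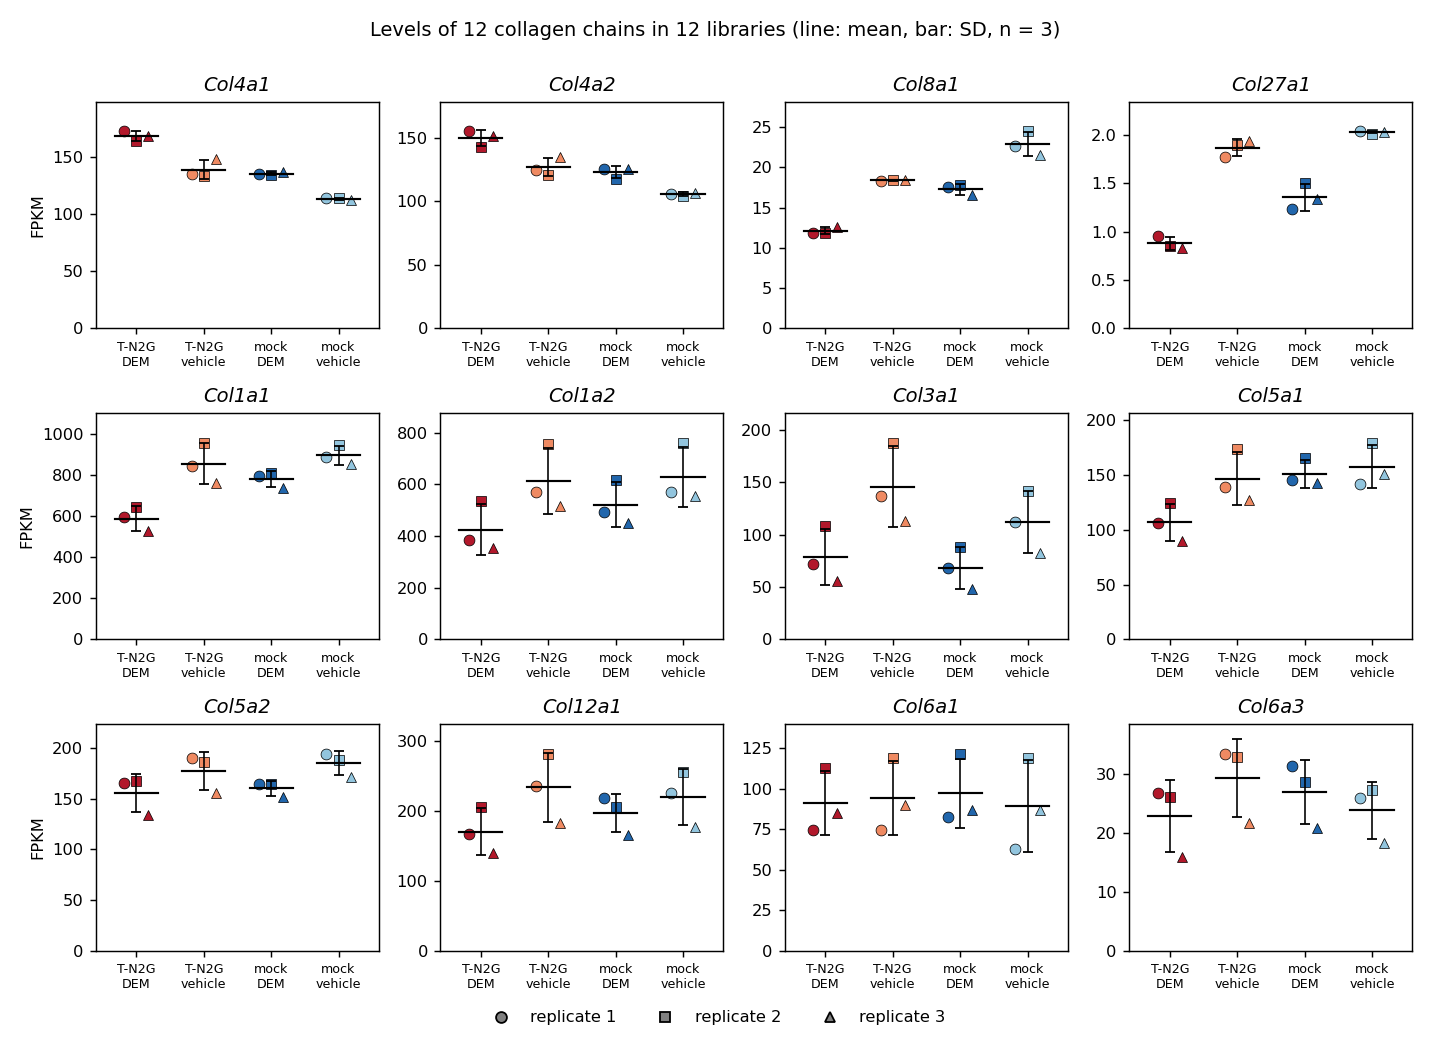
FPKM of 12 collagen chains (y axis, from 0) in the 4 groups (x axis); each point is a library with its shape showing the replicate number, the line is the mean and the bar the SD (n = 3). Col4a1 and Col4a2 are highest and Col8a1 and Col27a1 lowest in T-N2G DEM, while in Col6a1 replicate 2 is the highest library of every group.

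Col8a1 and Col27a1 were lower in the same comparisons. Col8a1 encodes a short-chain collagen of vessel walls and of the membrane under the corneal endothelium. It had 11.9, 11.9 and 12.6 FPKM in T-N2G DEM, 18.3, 18.5 and 18.4 FPKM in T-N2G vehicle, 17.6, 17.8 and 16.5 FPKM in mock DEM, and 22.7, 24.5 and 21.5 FPKM in mock vehicle. T-N2G DEM lay below every other library, and mock vehicle above every other library. DEM lowered it 1.52-fold in T-N2G cells (log2 fold change -0.60 ± 0.06, edgeR adjusted p = 0.000120) and 1.32-fold in mock cells (-0.41 ± 0.06, adjusted p = 0.00218). In DEM, T-N2G cells had 1.42-fold less than mock cells (-0.51 ± 0.06, adjusted p = 0.000355). In vehicle the log2 fold change was -0.31 ± 0.06 (adjusted p = 0.0657), and it passed with the block (0.000484, range over alternatives 0.000484 to 0.361).

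Col27a1, a fibrillar collagen of developing cartilage, had 0.953, 0.851 and 0.835 FPKM in T-N2G DEM, 1.77, 1.90 and 1.94 FPKM in T-N2G vehicle, 1.23, 1.51 and 1.34 FPKM in mock DEM, and 2.04, 2.02 and 2.04 FPKM in mock vehicle. These values rest on 116 to 324 fragments per library. DEM lowered it 2.12-fold in T-N2G cells (log2 fold change -1.09 ± 0.10, edgeR adjusted p = 5.93e-05), the only collagen change of at least 2-fold called without the block, and 1.495-fold in mock cells (-0.58 ± 0.10, adjusted p = 0.00339). In DEM it was 1.54-fold lower in T-N2G cells than in mock cells (-0.62 ± 0.10, adjusted p = 0.00342), and in vehicle the log2 fold change was -0.12 ± 0.09. With only replicates 1 and 2 of each group the calls in mock cells and in DEM were lost (adjusted p = 0.0866 and 0.159, and over all alternatives 2.27e-05 to 0.0866 and 6.33e-05 to 0.159), while that in T-N2G cells held.

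Of the major fibrillar chains Col1a1 and Col5a1 were lower with DEM in T-N2G cells without the block, and none passed in mock cells. With the block Col1a1, Col1a2, Col3a1 and Col5a2 were lower with DEM in both cell types. Col1a1 had 595, 643.5 and 525 FPKM in T-N2G DEM, 846, 958 and 762 FPKM in T-N2G vehicle, 794, 808 and 736 FPKM in mock DEM, and 888.5, 944 and 852 FPKM in mock vehicle. DEM lowered it 1.46-fold in T-N2G cells (log2 fold change -0.54 ± 0.10, edgeR adjusted p = 0.00487), where the groups do not overlap. In mock cells the log2 fold change was -0.20 ± 0.10 (adjusted p = 0.216), and the groups did not overlap there either.

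Col5a1 had 106, 124 and 89.95 FPKM in T-N2G DEM, 139, 174 and 127 FPKM in T-N2G vehicle, 145, 165 and 142.5 FPKM in mock DEM, and 142, 180 and 151 FPKM in mock vehicle. In T-N2G cells DEM lowered it 1.37-fold (log2 fold change -0.46 ± 0.14, adjusted p = 0.0481), a call lost in 4 of 6 fits that left out 1 library. In mock cells the log2 fold change was -0.06 ± 0.14 (edgeR adjusted p = 0.809). Its partner Col5a2 had log2 fold changes of -0.19 ± 0.10 in T-N2G and -0.21 ± 0.10 in mock cells. The ratio of Col5a1 to Col5a2 in FPKM was 0.686 ± 0.051 in T-N2G DEM, 0.825 ± 0.102 in T-N2G vehicle, 0.940 ± 0.063 in mock DEM and 0.854 ± 0.114 in mock vehicle (SD, n = 3 each).

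Col1a2 averaged 425 ± 97.8 FPKM in T-N2G DEM, 613.5 ± 127 in T-N2G vehicle, 521 ± 86.9 in mock DEM and 629 ± 115 in mock vehicle. Col3a1, the partner of type I collagen in soft tissues, had 72.1, 108 and 56.2 FPKM in T-N2G DEM, 137, 188 and 113 FPKM in T-N2G vehicle, 68.0, 88.0 and 48.3 FPKM in mock DEM, and 112, 142 and 82.2 FPKM in mock vehicle. Replicate 2 was the highest and replicate 3 the lowest library of every group for both genes. Col3a1 had log2 fold changes with DEM of -0.89 ± 0.29 in T-N2G cells and -0.72 ± 0.29 in mock cells (edgeR adjusted p = 0.0552 and 0.119). DESeq2 called Col1a2 and Col3a1 lower with DEM in T-N2G cells (adjusted p = 0.0321 and 0.0492). By pairs of the same replicate number, the log2 ratio was -0.92, -0.80 and -1.002 in T-N2G cells and -0.72, -0.69 and -0.76 in mock cells. With the block Col3a1 fell in both cell types (adjusted p = 2.79e-10 and 2.02e-08, range over alternatives up to 0.178 and 0.314), and so did Col1a2.

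All 9 tested fibrillar chains had a log2 fold change below 0 with DEM in both cell types, also with the other scalings tried, with a median of -0.54 in T-N2G and -0.27 in mock cells, against -0.0048 and -0.012 over all genes tested. Of all genes 50.8% and 52.2% were below 0. The chains share libraries, so their directions are not independent. Without mock vehicle replicate 2 the log2 fold change of Col5a1 in mock cells turned to 0.046. Without the block 3 of the 9 were called lower in T-N2G cells and 1 in mock cells (7.55% and 6.18% of all genes), and none was called higher. With the block 8 and 7 were called lower (22.2% and 21.9% of all genes), all but Col11a1 in T-N2G cells and all but Col5a1 and Col11a1 in mock cells. Col2a1, the cartilage fibril chain, and Col11a1 are at the limit of detection, with 1 to 26 and 9 to 48 fragments per library.

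Between the cell types in DEM, several fibrillar chains passed the test in the fit with the block and not in that without it. Col1a2 had a log2 fold change of -0.29 ± 0.20 over mock cells in DEM (edgeR adjusted p = 0.581). With the block it was lower (-0.30 ± 0.04, adjusted p = 3.58e-05). Col1a1 and Col5a1 had log2 fold changes of -0.40 ± 0.10 and -0.50 ± 0.14 over mock cells in DEM (edgeR adjusted p = 0.0527 and 0.0949), with no overlap between the groups, and DESeq2 called both lower. Col11a1, which nucleates cartilage fibrils, had 17, 9 and 23 fragments in T-N2G DEM and 38, 40 and 47 fragments in mock DEM, a log2 fold change of -1.21 ± 0.33 (adjusted p = 0.0711), and DESeq2 called it lower too (adjusted p = 0.0241). Col5a3, the minor type V chain, had 4.58, 6.50 and 5.86 FPKM in T-N2G DEM against 3.35, 5.16 and 4.61 FPKM in mock DEM. The log2 fold change of 0.37 ± 0.21 missed the threshold (adjusted p = 0.461) and passed with the block (0.000112, range over alternatives 0.000112 to 0.884), as did that in vehicle. With the block Col3a1 was also higher in T-N2G cells in DEM and in vehicle.

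**Figure D2:**
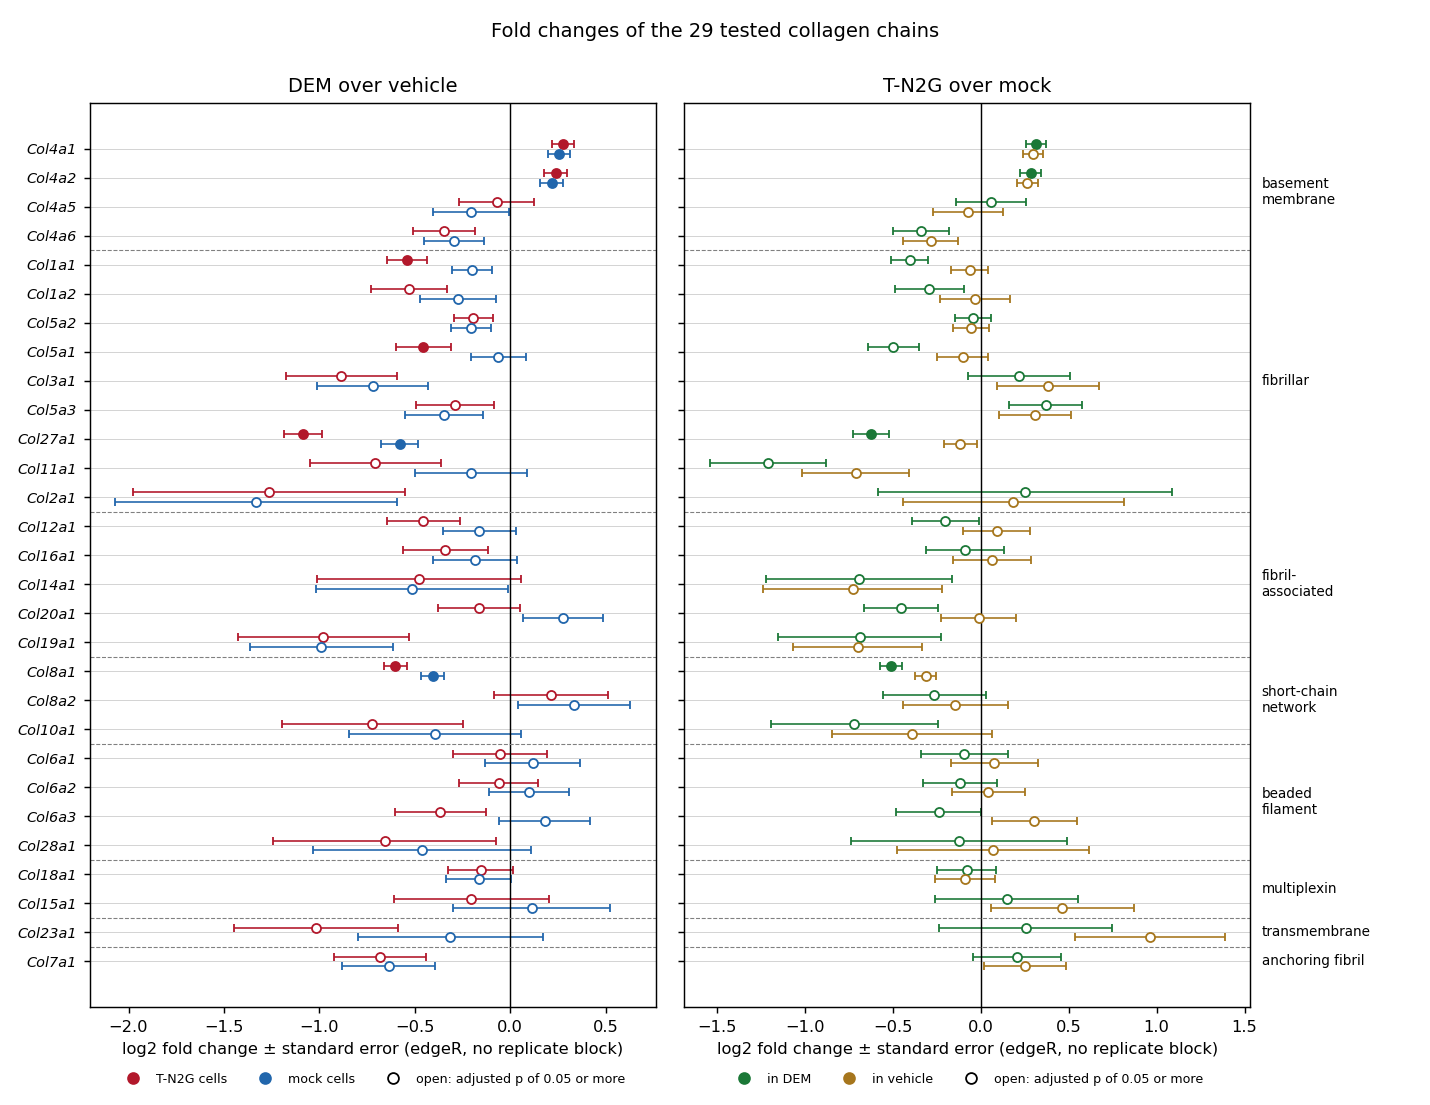
Log2 fold changes with standard errors (x axis) of the 29 tested chains (y axis, grouped by type) for DEM over vehicle (left, in T-N2G and in mock cells) and T-N2G over mock (right, in DEM and in vehicle); filled points have an adjusted p under 0.05 in the fit without the block. Col4a1 and Col4a2 lie above 0 on both sides, and all 9 fibrillar chains lie below 0 on the left.

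The difference between the DEM effects was tested directly. Without the block edgeR called no chain (0.417% of all genes higher, 0.016% lower), and DESeq2 called none either (0.666% of all genes higher, 0.12% lower). In edgeR 3 of the 29 had an unadjusted p under 0.05 (Col27a1, Col1a1, Col8a1), against 3.65% of all genes. With the block Col1a1, Col1a2, Col5a1, Col27a1 and Col6a3 had a more negative DEM effect in T-N2G cells than in mock cells, by log2 differences of -0.26 to -0.55, where 0.978% of all genes were called in that direction, and no chain had a more positive one (1.82% of all genes). Col6a3, a chain of the beaded filaments of type VI collagen, is the one whose direction differed. By replicate pairs its log2 ratio of DEM to vehicle was -0.32, -0.35 and -0.47 in T-N2G cells, and 0.28, 0.07 and 0.18 in mock cells. With the block Col6a3 was higher in T-N2G than mock cells in vehicle (log2 fold change 0.30 ± 0.05, edgeR adjusted p = 0.000798). In DEM it was lower in T-N2G than mock cells (-0.25 ± 0.05, adjusted p = 0.000997). Neither comparison passed without the block.

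The remaining type VI chains varied with the replicate number rather than with the groups. Col6a1 had 74.8, 113 and 85.1 FPKM in T-N2G DEM, 74.3, 119 and 89.7 FPKM in T-N2G vehicle, 82.8, 122 and 87.0 FPKM in mock DEM, and 62.6, 119 and 86.7 FPKM in mock vehicle. Replicate 2 was the highest and replicate 1 the lowest in all 4 groups, and Col6a2 had the same order. The replicate number held 91.5% of the sum of squares of log2 CPM for Col6a1 and 93.0% for Col6a2, and neither gene was called in any comparison with or without the block.

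Over the 29 tested chains the replicate number held a median of 46.3% of the sum of squares, against 28.6% over 12418 genes, and more than 50% for 13 chains (44.8%, against 25.8% of all genes). In Col14a1, a fibril-associated chain, replicate 2 was 2.28-fold the mean of the other replicates, in Col10a1, the growth plate chain, 2.14-fold, and in Col15a1, a chain that joins basement membranes to the matrix around them, 1.98-fold. Replicate 2 was the highest library in all 4 groups for each of them. With the block Col14a1 and Col10a1 were lower with DEM in both cell types and lower in T-N2G cells than in mock cells in DEM, and Col14a1 also in vehicle. Col4a1, Col4a2, Col8a1 and Col27a1 had 0.287 to 3.84% of their variation in the replicate number, the lowest shares of the 29. Col10a1 overlaps Nt5dc1 on the opposite strand, and its values are uncertain for that reason.

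**Figure D3:**
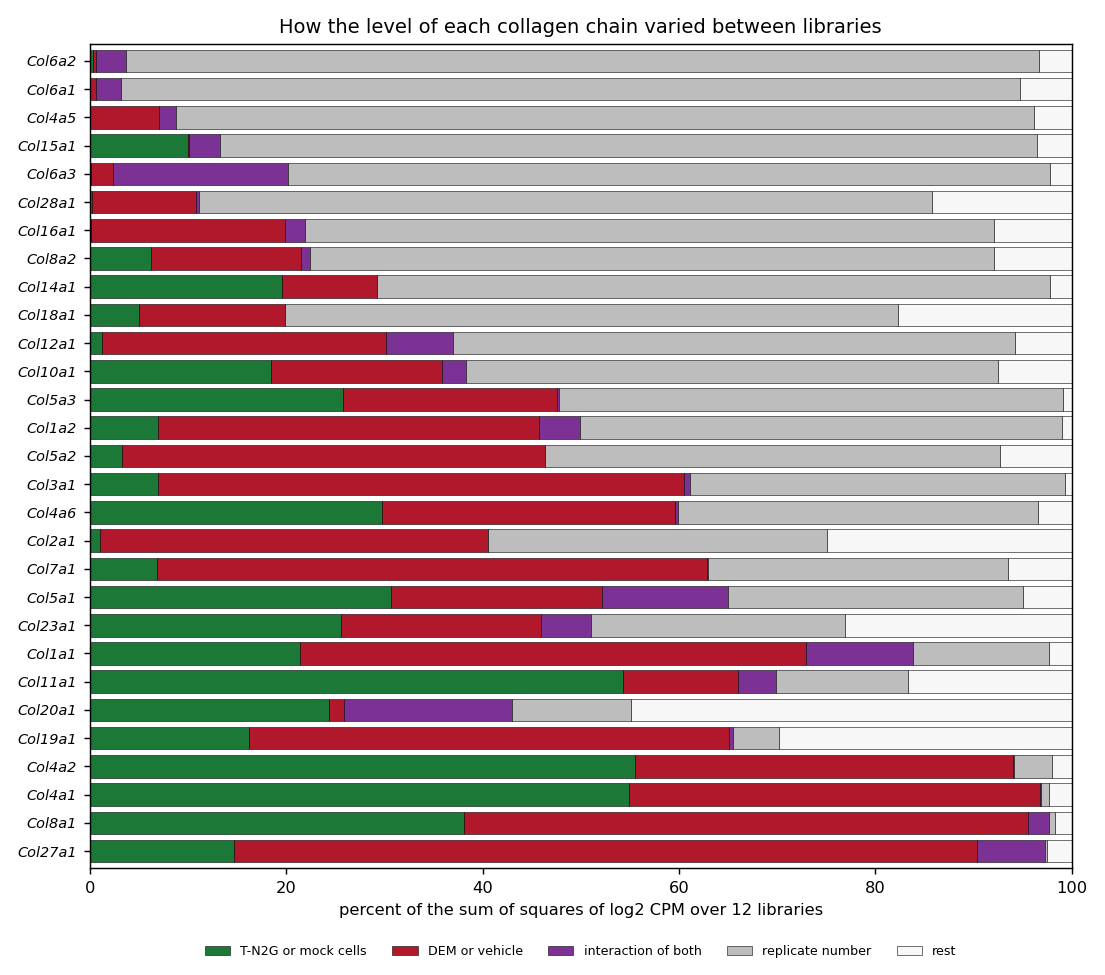
Share of the sum of squares of log2 CPM over the 12 libraries (x axis, percent) held by cell type, treatment, their interaction, replicate number and the rest, for each of the 29 tested chains (y axis), sorted by the share of the replicate number. Grey bars run from 93.0% in Col6a2 to 0.287% in Col27a1.

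The fibril-associated and other chains gave no call without the block. Col12a1, the most abundant of the 5 tested fibril-associated chains, had 167, 205 and 139 FPKM in T-N2G DEM, 236, 282 and 183 FPKM in T-N2G vehicle, 219, 205 and 166 FPKM in mock DEM, and 226, 256 and 178 FPKM in mock vehicle. Its log2 fold change with DEM was -0.46 ± 0.19 in T-N2G and -0.16 ± 0.19 in mock cells (edgeR adjusted p = 0.123 and 0.611), and both passed with the block, as did those of Col14a1 and Col16a1. In DEM the log2 fold change of Col12a1 in T-N2G over mock cells was -0.20 ± 0.19 (adjusted p = 0.720). It passed with the block (0.0140), although 1 of 3 replicate pairs was higher. Col7a1, the anchoring fibril chain of skin, fell with the block in both cell types at 42 to 104 fragments per library. Col15a1 was higher in T-N2G cells than in mock cells in vehicle with the block. Col23a1, a transmembrane chain, fell with DEM in T-N2G cells and Col19a1, a rare fibril-associated chain, in mock cells, both with the block only and at no more than 21 and 17 fragments per library. Col20a1 and Col28a1 were called in no comparison with either fit. Col18a1, the source of endostatin, averaged 8.75 to 10.4 FPKM per group and was called in no comparison with either fit. Col8a2, the partner of Col8a1, had positive log2 fold changes with DEM of 0.21 ± 0.30 in T-N2G and 0.33 ± 0.29 in mock cells, and passed in mock cells with the block.

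Collagen transcripts together took 1.195, 1.44 and 1.06% of all fragments in T-N2G DEM, 1.52, 1.89 and 1.36% in T-N2G vehicle, 1.41, 1.56 and 1.29% in mock DEM, and 1.48, 1.82 and 1.43% in mock vehicle. Within each replicate number DEM was lower than vehicle in 3 of 3 pairs in both cell types, and T-N2G was lower than mock cells in 3 of 3 pairs in DEM. The groups overlap, and a two-sided exact permutation test that did not pair libraries by number gave p = 0.2 for DEM in T-N2G cells, 0.4 for DEM in mock cells, 0.3 for T-N2G over mock in DEM and 0.9 in vehicle (n = 3 each). The smallest p this unpaired test allows is 0.1, and the spread between replicate numbers stays in it. The 6 type IV chains together took 0.214 ± 0.003% in T-N2G DEM, 0.183 ± 0.007% in T-N2G vehicle, 0.179 ± 0.002% in mock DEM and 0.156 ± 0.006% in mock vehicle (SD, n = 3 each), while Col1a1, Col1a2 and Col3a1 together took 0.520 ± 0.0997% in T-N2G DEM, 0.774 ± 0.150% in T-N2G vehicle, 0.656 ± 0.0774% in mock DEM and 0.787 ± 0.111% in mock vehicle.

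**Figure D4:**
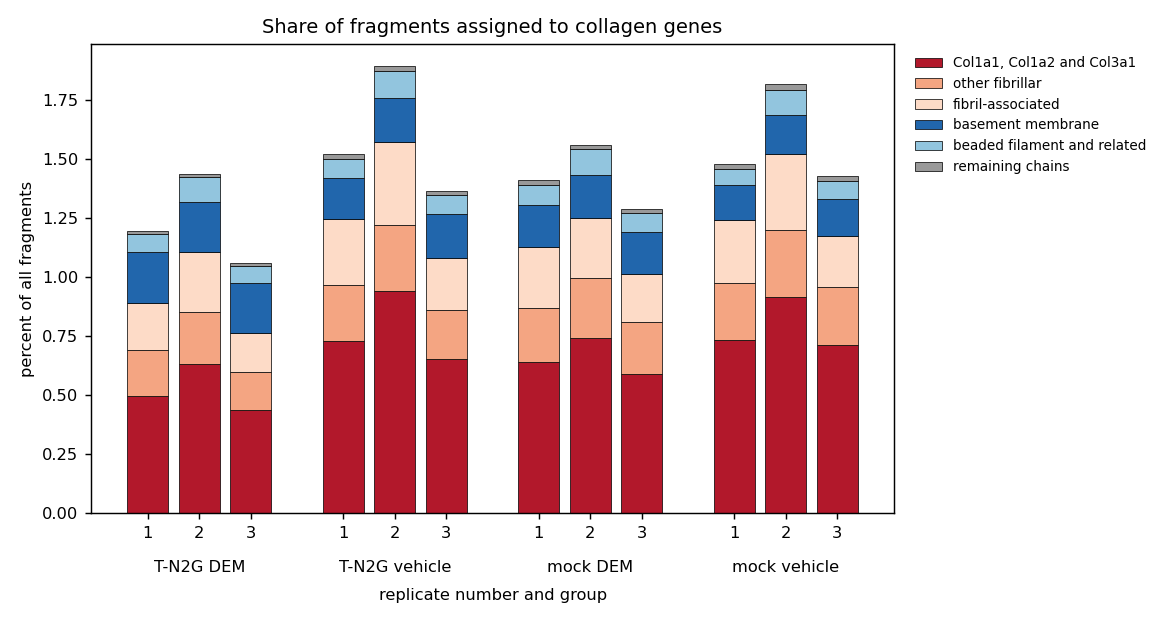
Percent of all fragments of each library (y axis, from 0) assigned to collagen genes, stacked by type, for the 12 libraries (x axis, by group and replicate). Replicate 2 has the tallest bar of each group, and the type IV layer is thickest in T-N2G DEM, the group with the lowest mean height, although its bars overlap those of the other groups.

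Genes that make, export or hold collagen were examined by lists, to be read against the share of all genes called. Without the block DEM raised 10.1% and lowered 7.55% of all genes in T-N2G cells and raised 7.76% and lowered 6.18% in mock cells, and 2.61% were higher and 1.11% lower for T-N2G over mock in DEM. Of 18 tested genes for modification and folding, DEM raised 1 in T-N2G cells (P4ha1, 10.1% of all genes) and 4 in mock cells (P4ha1, P4ha2, P4hb, Plod1, 7.76% of all genes). It lowered 2 in T-N2G cells (P3h2, Tmem38b) and 1 in mock cells (Tmem38b). P4ha1, a catalytic subunit of collagen prolyl 4-hydroxylase, averaged 201 ± 1.61 CPM in T-N2G DEM, 173 ± 5.73 in T-N2G vehicle, 224 ± 2.28 in mock DEM and 179.9 ± 5.53 in mock vehicle (SD, n = 3 each). It was 1.16-fold higher with DEM in T-N2G and 1.25-fold higher in mock cells (edgeR adjusted p = 0.00951 and 0.00206). P3h2, a prolyl 3-hydroxylase, fell 2.15-fold in T-N2G cells (adjusted p = 0.0328). In DEM, P4ha2 and Fkbp10, a foldase of procollagen, were 1.27- and 1.22-fold lower in T-N2G cells than in mock cells (adjusted p = 0.0205 and 0.00444). Serpinh1, the collagen chaperone Hsp47, averaged 1869 ± 61.9 CPM in T-N2G DEM and 2050 ± 91.1 in mock DEM and was not called without the block. With the block DEM raised 5 and lowered 4 of the 18 in T-N2G cells (22.8% and 22.2% of all genes) and raised 10 and lowered 3 in mock cells (20.9% and 21.9%), and in DEM 8 were lower and none higher in T-N2G cells relative to mock cells (9.32% and 10.3%). The list's median log2 fold change with DEM was 0.03 in T-N2G and 0.12 in mock cells.

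Of 13 tested genes for export and propeptide processing, DEM raised 3 in T-N2G cells (Ctage5, Sec24d, Furin, 10.1% of all genes) and 4 in mock cells (the same and Sec23a, 7.76% of all genes). It lowered Creb3l1, a transcription factor of procollagen genes, and Pcolce, an enhancer of C-propeptide removal, in T-N2G cells. Sec24d, a cargo subunit of the coat that carries procollagen out of the endoplasmic reticulum, had 241, 255 and 241 CPM in T-N2G DEM, 184, 185.5 and 171.5 CPM in T-N2G vehicle, 195, 191 and 178 CPM in mock DEM, and 155, 167 and 168 CPM in mock vehicle. It was 1.36-fold higher with DEM in T-N2G cells and 1.31-fold higher in T-N2G cells than in mock cells in DEM (edgeR adjusted p = 0.000499 and 0.00183). Creb3l1 averaged 145 ± 10.7 CPM in T-N2G DEM and 201 ± 6.92 CPM in T-N2G vehicle (SD, n = 3 each), 1.39-fold lower (adjusted p = 0.0119). With the block 4 rose and 4 fell with DEM in T-N2G cells (22.8% and 22.2% of all genes), 5 rose and 2 fell in mock cells (20.9% and 21.9%), and in DEM 2 were higher and 4 lower in T-N2G cells than in mock cells (10.3% and 9.32%).

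Among 16 tested matrix proteins that bind or space collagen, Nid1 was called in 4 of the 5 contrasts. It encodes nidogen, which links type IV collagen to laminin. It had 2510, 2205 and 2431 CPM in T-N2G DEM, 1120, 975 and 1168 CPM in T-N2G vehicle, 653, 706 and 705 CPM in mock DEM, and 714.5, 743 and 762 CPM in mock vehicle. T-N2G cells had 3.46-fold the mock level in DEM and 1.47-fold in vehicle (edgeR adjusted p = 1.62e-07 and 0.0109), and DEM raised it 2.19-fold in T-N2G cells (adjusted p = 1.07e-05). In mock cells its log2 fold change with DEM was -0.10 ± 0.08, and the difference between the DEM effects passed the test at a log2 difference of 1.24 ± 0.11 (adjusted p = 0.000306). DEM lowered 5 others of the list in T-N2G cells (Prelp, Tnc, Thbs1, Thbs2, Tgfbi) and 1 in mock cells (Thbs1). Thbs1, a matricellular protein that activates latent TGF-beta, averaged 1390 ± 189 CPM in T-N2G DEM, 3087 ± 377 in T-N2G vehicle, 2549 ± 472 in mock DEM and 3872 ± 515 in mock vehicle. With the block DEM lowered 13 of the 16 in T-N2G cells (22.2% of all genes) and 9 in mock cells (21.9%). For T-N2G over mock with the block 3 were higher and 6 lower in DEM (10.3% and 9.32%), and 4 higher and 4 lower in vehicle (3.06% and 3.24%). The list's median log2 fold change with DEM was -0.41 in T-N2G and -0.31 in mock cells.

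Of 18 tested TGF-beta genes, DEM lowered Tgfb2 and Tgfbr2 and raised Smad4 in both cell types, and lowered Ltbp2 in T-N2G cells. Tgfb2, a ligand of the pathway that induces fibrillar collagen genes, fell 2.11-fold to 51.9 ± 3.39 CPM in T-N2G DEM, against 109.5 ± 2.14 in T-N2G vehicle, and 2.03-fold to 56.9 ± 4.19 CPM in mock DEM, against 116 ± 8.12 in mock vehicle (SD, n = 3 each, edgeR adjusted p = 1.06e-05 and 4.94e-05). In DEM, Tgfbr2 was 1.25-fold lower and Smad6, an inhibitory Smad, 1.35-fold higher in T-N2G than mock cells (adjusted p = 0.00910 and 0.0389). With the block DEM raised 4 and lowered 7 of the 18 in T-N2G cells (22.8% and 22.2% of all genes) and raised 3 and lowered 5 in mock cells (20.9% and 21.9%), and in DEM 1 was higher and 3 lower in T-N2G cells than in mock cells (10.3% and 9.32%). Of 8 tested receptors, Itga11, an integrin chain for fibrillar collagen, and Ddr1, a tyrosine kinase receptor for collagen, were lower with DEM in T-N2G cells (2.67- and 1.203-fold, adjusted p = 0.00877 and 0.0255). With the block Adgrg1 was also lower there (22.2% of all genes), and in mock cells DEM raised Ddr2 and lowered Itga11 (20.9% and 21.9%). For T-N2G over mock with the block Adgrg1 was higher and Mrc2 lower in both treatments, while Itga11 was lower in DEM and higher in vehicle. Of all genes 10.3% were higher and 9.32% lower in DEM, and 3.06% and 3.24% in vehicle. Of 7 tested proteases, Mmp14, which cuts fibrillar collagen at the cell surface, was the 1 called and was 1.27-fold higher with DEM in mock cells (adjusted p = 0.0444). With the block Mmp14 was higher and Mmp2 and Mmp15 were lower with DEM in both cell types, and Pepd was also lower in mock cells. For T-N2G over mock in DEM with the block Mmp9 and Ctsl were higher and Mmp2 and Mmp14 lower, and in vehicle Mmp2 was lower. The shares of all genes for these protease calls are those given for the TGF-beta genes and the receptors. In vehicle the block also called Fkbp10 and Adamts2 lower (3.24% of all genes) and Ltbp2 higher (3.06%). Over these lists the difference of DEM effects called with the block, T-N2G minus mock, was above 0 for Sec24d and Nid1 (1.82% of all genes). It was below 0 for P3h2, Prelp, Fn1, Tnc, Thbs1, Tgfb3, Ltbp1 and Itga11 (0.978% of all genes).

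Cartilage markers are given beside the cartilage-related chains Col27a1 and Col11a1. The summed level of 6 of them was 23.2 to 27.5 CPM in T-N2G DEM, 34.7 to 41.0 in T-N2G vehicle, 32.1 to 37.8 in mock DEM and 34.1 to 36.7 in mock vehicle, nearly all of it Sox9. Sox9, a transcription factor of cartilage, fell 1.47-fold with DEM in T-N2G cells (edgeR adjusted p = 0.00250) and was 1.32-fold lower in T-N2G than mock cells in DEM (adjusted p = 0.0322). Matn3, a cartilage matrix protein, fell 2.08-fold with DEM in T-N2G cells (adjusted p = 0.0132). In mock cells, where Col27a1 was called lower with DEM, neither marker passed without the block and Matn3 was lower with it. Hapln1 was at 0 in every library, Acan stayed at or under 0.811 CPM, and Matn1 and Lect1 stayed under 0.05 CPM. Summed bone markers were 60.0 to 62.9 CPM in T-N2G DEM, 73.9 to 81.4 in T-N2G vehicle, 57.7 to 60.5 in mock DEM and 65.7 to 69.6 in mock vehicle, nearly all of it Runx2, and Ibsp was at 0 in every library. Runx2, a transcription factor of bone, fell 1.26-fold with DEM in T-N2G cells and 1.14-fold in mock cells (edgeR adjusted p = 0.00241 and 0.0452). Of 8 tested fibroblast markers none was called without the block. With it DEM lowered 5 in T-N2G and 4 in mock cells (22.2% and 21.9% of all genes) and raised Thy1 in both (22.8% and 20.9%). Vim, Twist1 and Prrx1 were lower in T-N2G cells than in mock cells in DEM with the block (9.32% of all genes). Summed epithelial markers reached 26.3 CPM, most of it Krt14, and endothelial markers 15.6 CPM, with Pecam1, Cdh5 and Tie1 at 0 in at least 1 library. Summed neural crest and glial markers were 13.4 to 18.0 CPM and skeletal muscle markers at most 0.378 CPM. The part of these markers in the collagen differences was not tested.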

How the data were processed

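Polyadenylated RNA of 12 libraries was analysed, in 4 groups taken from sample titles and joined to the table by the key in the series description. The authors deposited for each gene and library an estimated count of fragments (raw fragments, 98.274% of values whole and all collagen values whole) and FPKM, which divides fragments by transcript length and by depth. The submitters' processing notes name bcl2fastq 2.16.0.10, TopHat2 2.0.8b, Cuffdiff 2.1.1 and the build mm9, and the annotation and strand setting are not given in the sources used here. The 2 other value columns per sample, fragments after scaling, were not used.

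Rounded counts entered edgeR 4.0.16 under R 4.3.3 (filterByExpr with minimum count 10 and minimum total 15, 12469 genes tested and 11849 removed, TMM factors 0.980 to 1.028). All 12 libraries entered 1 quasi-likelihood fit with 5 contrasts, T-N2G over mock in DEM and in vehicle, DEM over vehicle in T-N2G and in mock cells, and the difference of the DEM effects. The standard error of a log2 fold change is approximate, from its size and its F statistic. The biological coefficient of variation common to all genes came to 0.110 (0.0428 with the block), on 8 residual degrees of freedom (6 with the block). The approximate intervals of log2 differences were built from these standard errors, so they include the spread between libraries. The upper limit for a chain without a fragment covers counting error only. Motifs were searched on both strands of RefSeq windows, which are of another build than the table, so no position was joined to the counts. Alternatives were the replicate block, DESeq2 1.42.0, RLE factors, library totals alone, no filter, limma 3.58.1 on log2(FPKM + 1) and log2(FPKM + 0.1) for genes averaging at least 1 FPKM, replicates 1 and 2 only, and leaving out each library. Every alternative but the first was fitted without the block. The edgeR fits with and without the block were run on simulated counts that had no effect of replicate number. DESeq2 and limma were not run on them, and such counts cannot show how the block performs on these data. No replicate pair agreed within sampling noise (chi-square per degree of freedom of 10.3 or more).

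Replicate numbers stand in the sample titles. From deviations of log2 CPM from group means, computed before the fits were compared, the 18 pairs with the same number had r of 0.446 to 0.760 and the 36 pairs with different numbers -0.561 to 0.0941, and 12 of 12 libraries correlated best with their own number, and samples were therefore taken as paired by number. Blocked values stand beside the collagen results whose call they change and beside the counts of the companion lists.

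The members, the lists and the naming rule were chosen with earlier results of these data known. The rule names the type I, III, V and VI chains and Col4a1 and Col4a2, every chain called in any comparison with or without the block, the 3 smallest p per comparison, called members of the companion lists (at most 4 per comparison), and Mafg and Nfe2l2 as a check of the labels. Nfe2l2 averaged 556 ± 94.5 CPM in T-N2G DEM, 599 ± 109 in T-N2G vehicle, 62.4 ± 3.79 in mock DEM and 53.2 ± 5.56 in mock vehicle (SD, n = 3 each).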

Additional observations from a re-analysis of the deposited data

Results flagged for a closer look

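The DEM effect differed between T-N2G and mock cells for 5 chains in a direct test of the difference with the replicate block (edgeR, adjusted over 12469 genes). All 5 had a more negative effect in T-N2G cells, a direction in which 0.978% of all genes were called. The log2 difference, T-N2G minus mock, was -0.34 ± 0.06 for Col1a1 (adjusted p = 0.00381), -0.26 ± 0.06 for Col1a2 (0.0147), -0.40 ± 0.08 for Col5a1 (0.00601), -0.51 ± 0.13 for Col27a1 (0.0395) and -0.55 ± 0.07 for Col6a3 (7.14e-05). Without the block none passed, and the adjusted p over all alternatives reached 1.0 for each of the 5. Those other alternatives left out the pairing by number, and no fit with the block was repeated without a library. For Col6a3 the log2 ratio of DEM to vehicle was below 0 in 3 of 3 pairs of T-N2G cells and above 0 in 3 of 3 pairs of mock cells. The other 4 had a log2 ratio below 0 in 3 of 3 pairs of both cell types, except Col5a1, with 1 pair of mock cells above 0.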

How the results depend on the processing

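The recomputed log2 fold changes are 74 of the 145 of tested chains and comparisons, those called with or without the block, with the 3 smallest p of a comparison, or given above. Over the alternatives 955 values kept their direction and side of the threshold, 74 newly passed it, 29 no longer passed it and 11 reversed. Among those called with the block the reversals were Col3a1 in T-N2G over mock in DEM without T-N2G DEM replicate 2 (-0.091 to 0.43 over the fits that left out 1 library), and, for DEM in mock cells without mock vehicle replicate 2, Col4a5 (-0.33 to 0.0020), Col14a1 (-1.02 to 0.096) and Col16a1 (-0.35 to 0.012). The others were Col5a1 for DEM in mock cells without mock vehicle replicate 2 (-0.14 to 0.046), Col8a2 for DEM in T-N2G cells without T-N2G DEM replicate 2 (-0.014 to 0.505), and the differences of DEM effects of Col4a1 (-0.016 to 0.066) and Col4a2 (-0.021 to 0.061), which lie near 0. Over all 145, 58 changed sign under at least 1 alternative, none of them called without the block and 4 called with it, and the cause was not tested. The fits that left out 1 library had no block, so they also broke up a pair of the same number. By such pairs the log2 ratio of DEM to vehicle in mock cells was -0.08, -0.31 and -0.18 for Col4a5. It was -0.12, -0.59 and -0.62 for Col14a1 and -0.14, -0.21 and -0.19 for Col16a1. For Col3a1 in T-N2G over mock in DEM it was 0.09, 0.30 and 0.22.

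With the replicate block, which pairs the samples by number, the counts of called chains were 2 higher and 17 lower for DEM in T-N2G cells, 4 and 16 for DEM in mock cells, 4 and 11 for T-N2G over mock in DEM, 6 and 3 in vehicle, and 5 lower for the difference of DEM effects. In the same order the shares of all genes were 22.8% higher and 22.2% lower, 20.9% and 21.9%, 10.3% and 9.32%, 3.06% and 3.24%, and 0.978% lower. DESeq2 gave 6 lower for DEM in T-N2G cells (8.67% of all genes), 5 lower for T-N2G over mock in DEM (2.07%), and 2 higher and 1 lower in vehicle (0.658% and 0.209%). Shares of all genes are not given for the fits that follow. With replicates 1 and 2 only, which leaves fewer samples, the count was 0 higher for DEM in T-N2G cells, 0 higher and 1 lower for DEM in mock cells, and 0 higher and 1 lower for T-N2G over mock in DEM. Without the filter on low counts, which tests more genes, DEM in mock cells raised 1. Leaving out each library gave 1 to 2 higher and 3 to 6 lower for DEM in T-N2G cells, 1 to 2 higher and 2 lower for DEM in mock cells, 1 to 2 higher and 2 to 4 lower for T-N2G over mock in DEM, and 0 for the remaining counts. The Col4a2 call for T-N2G over mock in DEM held only without T-N2G DEM replicate 2, and that for DEM in mock cells only without mock DEM replicate 2. The Col4a2 and Col5a1 calls for DEM in T-N2G cells were lost without T-N2G DEM replicate 1 or 3 and without T-N2G vehicle replicate 1 or 2. Every chain called without the block was also called with it.

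The log2 ratio of the collagen share of fragments for T-N2G over mock in vehicle was 0.016 with all libraries and -0.13 to 0.13 without 1 of them, below 0 without T-N2G vehicle replicate 2 (-0.13), mock vehicle replicate 1 (-0.028) and mock vehicle replicate 3 (-0.050). The 64 recomputed FPKM ratios moved by less than 1 SD, which is no test of them. Leaving out 1 of 3 libraries cannot move a mean by 1 SD, and the other recomputation took transcript lengths from the same FPKM. Chains under 1 FPKM rest on few fragments, so changes in them were not detectable unless large.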
